A study of Mus musculus with 1 sample.

Results

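Genes of cholesterol synthesis, sterol transport and fatty acid metabolism were described in cells of the ovarian surface epithelium, the single cell layer around the ovary, from wild-type mice. The members were the 56 genes of a list of lipid metabolism genes, and every probe set whose only gene symbol was a member was used. A probe set is a group of short probes on the array that report on a transcript, and a gene can have several. Of the 56 members 52 had such a probe set, with 122 probe sets between them, out of 18193 genes and 34945 probe sets named in the same way. Soat1, Soat2, Plin1 and Cpt1b had none and were not analysed here. The only probe set that names Cpt1b, the muscle form of carnitine palmitoyltransferase, is shared with Chkb and Gm44502 and had an intensity of 39.

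The sample held total RNA of surface epithelial cells from wild-type animals aged 3 months, hybridised to 1 Affymetrix mouse expression array. The strain and the number of animals pooled are not stated in the labels. Although the series was designed around 3 genotypes, the data used were those of the wild type, so no genotypes were compared, no value has a replicate error and no test was made. Fewer cells of a type and less RNA per cell cannot be told apart in such a bulk sample.

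Cholesterol is built from acetyl-CoA through mevalonate, isoprenoid units, squalene and a series of sterol intermediates. The transcription factors of the SREBP family raise these enzymes when membrane sterol is low, after the escort protein SCAP carries them from the endoplasmic reticulum to the Golgi, and the INSIG proteins hold SCAP back when sterol is plentiful. Fatty acids are made from citrate-derived acetyl-CoA, desaturated and lengthened at the endoplasmic reticulum, stored as triglyceride in lipid droplets, and broken down by beta-oxidation in mitochondria. In the ovary, cholesterol is the starting material of steroid hormones, which are made by follicular, theca and luteal cells lying beneath the surface epithelium.

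Sequences upstream of the annotated transcription start sites were read from RefSeq promoter windows of the mouse build GRCm38.p6, to show the letters that SREBP and its partner NF-Y are known to bind. Of the 52 measured members 41 had a window, 52 windows in all, each covering 250 bases before the start site and 50 after it. The letters TCACCCCAC, a common core of the sterol regulatory element, were searched on both strands. They stood in 1 of the 52 member windows, that of Hmgcs1, and in 0.551% of all 32851 windows. A shorter core of 7 letters, TCACCCC, which lies within the longer one, stood in 5 of the 52 member windows and in 4.97% of all windows. These 5 windows belonged to 5 members. The CCAAT box, CCAAT or its reverse complement, stood in 26 of the 52 member windows and in 37.4% of all windows. The upstream stretches of Hmgcs1, which makes the substrate of the mevalonate step, and of Srebf2, the main SREBP gene of sterol synthesis, are shown whole, 5′ to 3′ on the strand of the gene and ending at the base before the start site. Capitals mark the 7-letter core and CCAAT boxes on either strand.
Hmgcs1, chr13:119690101-119690350, plus strand: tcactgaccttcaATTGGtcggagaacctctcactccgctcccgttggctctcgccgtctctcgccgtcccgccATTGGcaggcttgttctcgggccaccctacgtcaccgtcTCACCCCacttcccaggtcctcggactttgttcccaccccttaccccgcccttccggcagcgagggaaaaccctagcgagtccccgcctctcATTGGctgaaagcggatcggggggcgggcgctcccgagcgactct
Srebf2, chr15:82147019-82147268, plus strand: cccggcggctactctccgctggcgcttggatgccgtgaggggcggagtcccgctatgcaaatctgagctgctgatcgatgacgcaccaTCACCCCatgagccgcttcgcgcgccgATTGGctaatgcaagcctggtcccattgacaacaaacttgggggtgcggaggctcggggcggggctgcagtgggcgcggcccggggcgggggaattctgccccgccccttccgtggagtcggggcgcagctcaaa
In Hmgcs1 the core starts at position -137, with CCAAT boxes at -237, -176 and -45, where -1 is the base before the start site. In Srebf2 the core starts at -162 and a CCAAT box at -135.

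All 8 sterol synthesis enzymes with a window held a CCAAT box in at least 1 window, or 8 of their 9 windows. For beta-oxidation 1 of 7 windows held the box, and for fatty acid synthesis, desaturation and elongation 5 of 9. For sterol sensing it was 5 of 10, and for sterol uptake, trafficking and efflux 4 of 10. Lipases and lipid droplets had it in 2 of 5 windows, and fatty acid binding and uptake in 1 of 2. These shares describe short windows and no difference between them was tested. The stretch round the box nearest to the start site on its upstream side is shown for the 7 enzymes other than Hmgcs1, 5′ to 3′ on the strand of the gene, with the box in capitals.
Mvk, chr5:114444237-114444268, plus strand: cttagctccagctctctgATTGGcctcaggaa
Pmvk, chr3:89454387-89454427, plus strand: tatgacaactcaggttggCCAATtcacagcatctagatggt
Mvd, chr8:122443427-122443467, minus strand: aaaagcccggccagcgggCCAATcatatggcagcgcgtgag
Idi1, chr13:8885574-8885605, plus strand: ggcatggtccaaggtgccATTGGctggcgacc
Lss, chr10:76531525-76531565, plus strand: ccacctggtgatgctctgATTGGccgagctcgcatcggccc
Nsdhl, chrX:72918483-72918520, plus strand: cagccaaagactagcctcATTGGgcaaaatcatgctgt
Sc5d, chr9:42264302-42264342, minus strand: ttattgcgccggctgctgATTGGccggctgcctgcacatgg
The box starts between positions -14, in Mvk and Idi1, and -136, in Pmvk. A match is a description of letters and says nothing of whether a factor was bound in these cells.

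The remaining members with the 7-letter core were Insig2, Apoe and Pnpla2, shown with the core, or its reverse complement in Insig2, in capitals.
Insig2, chr1:121327700-121327740, minus strand: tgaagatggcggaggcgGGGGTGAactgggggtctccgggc
Apoe, chr7:19699378-19699418, minus strand: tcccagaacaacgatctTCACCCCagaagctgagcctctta
Pnpla2, chr7:141455151-141455187, plus strand: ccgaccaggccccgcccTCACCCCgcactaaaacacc
All 5 genes with the core had a probe set above background, as did 47 of the 52 measured members.

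To count as above background, a gene needed a probe set with an intensity over 46.5 (log2 value 5.54). This limit was taken from 126 probe sets for keratin-associated proteins and for olfactory, vomeronasal and bitter taste receptors, as their 95th percentile; their median was 13. Of the 52 measured lipid members 47 (90.4%) passed it, against 62.8% of all named genes. A gene with more probe sets has more chances to pass, and members had 2.35 probe sets each against 1.92 over all genes. Weighting all genes to the members' numbers of probe sets gave 70.4%, and counting probe sets in place of genes gave 85 of 122 (69.7%) for the members and 55.1% for all named probe sets. The median level of the measured members was 9.81 on the log2 scale, against 7.06 over all named genes. Affinity differs between the probe sets of different genes, so these medians describe the lists only and levels of different genes are not ranked.

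**Figure D1:**
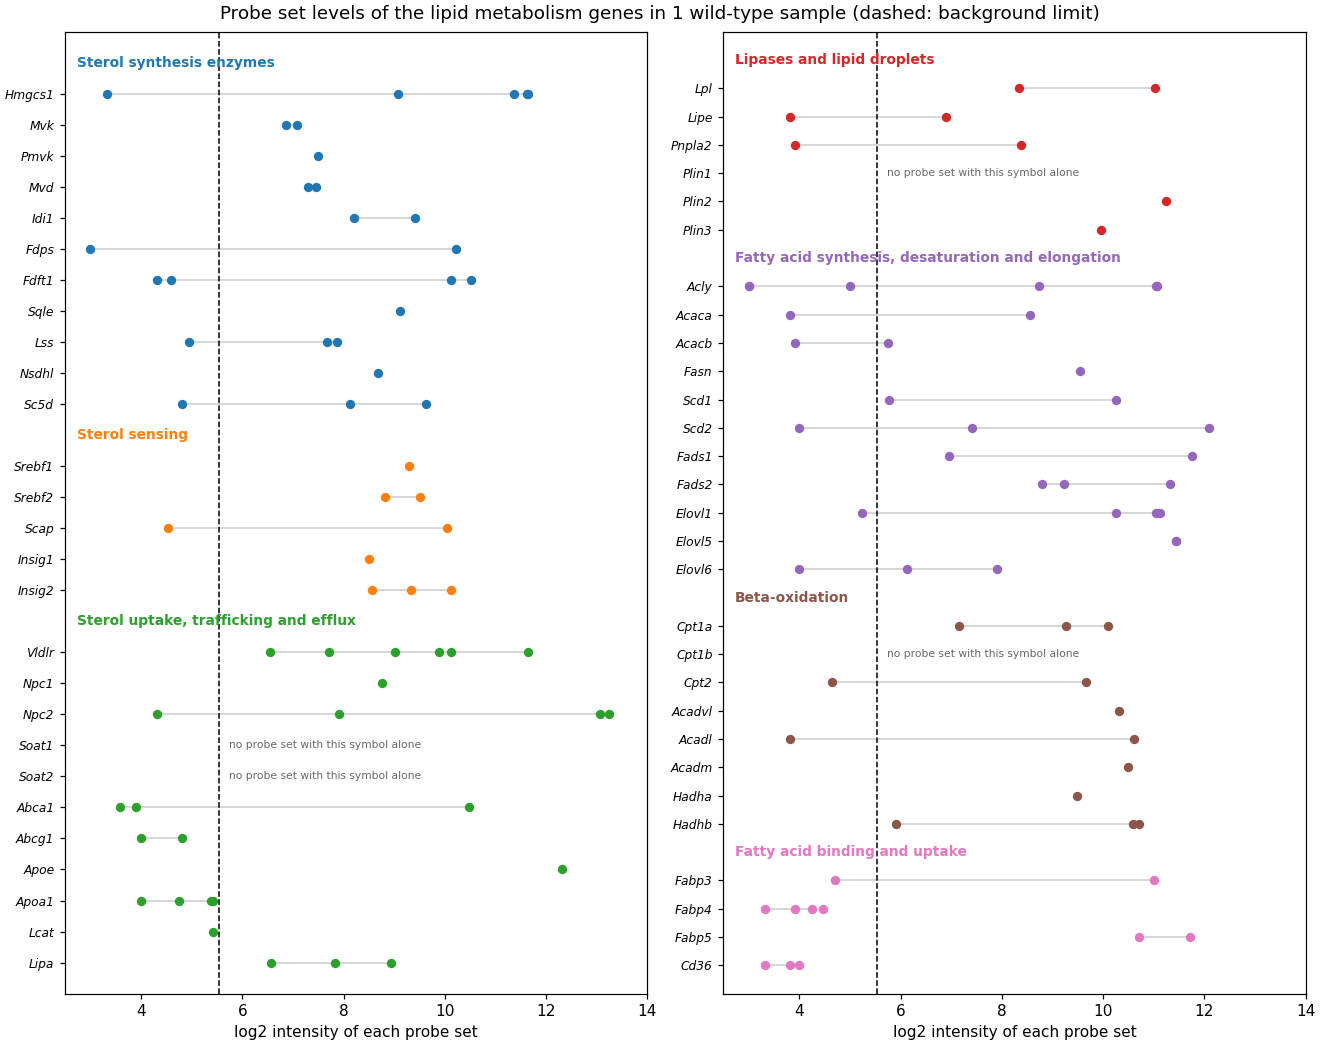
Each point is 1 probe set of a lipid metabolism gene, on the log2 intensity scale, in the wild-type sample. Genes run down the page by role, grey lines join probe sets of 1 gene, and the dashed line is the background limit of 5.54. The 5 measured genes with every point left of the line are Abcg1, Apoa1, Lcat, Fabp4 and Cd36.

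Probe sets of the same member often disagreed. Among 38 members with several probe sets, 15 had all of them above the limit, 4 had none and 19 lay on both sides of it, against 46.7% on both sides among all named genes with several. The median SD between probe sets of a member was 2.07 on the log2 scale, against 1.39 over all named genes; this spread comes from 1 array. In 28 of the 52 members every probe set was above the limit, against 39.7% of all named genes. Where a member had 1 probe set, it passed in 13 of 14 cases, against 47.3% of all such genes. The members closest to the limit were Acacb, at 0.22 relative to it on the log2 scale, Apoa1 and Lcat, both at -0.11, and Abcg1, at -0.73.

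The enzymes of cholesterol synthesis were above background from the first committed steps to the late sterol steps. All 11 passed the limit, with 20 of their 26 probe sets above it. Over all named genes 62.8% passed, and 55.1% of probe sets, and these shares stand beside the counts of every role below. Among all genes the share rose with the number of probe sets, from 47.3% with 1 to 94.9% with 6 or more. No role was tested against these shares. Hmgcs1, the cytosolic HMG-CoA synthase, had intensities of 3197, 3136, 2622, 538 and 10 on its 5 probe sets. Mvk, which phosphorylates mevalonate, had 135 and 116, and Pmvk, the next kinase, had 180. The mevalonate decarboxylase gene Mvd had 175 and 157. These low probe sets were all above the limit, and those of Mvk and Mvd lay close together.

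Isoprenoid and squalene enzymes followed. Idi1, which interconverts the isoprenoid building blocks, had 685 and 296. Fdps, which makes farnesyl diphosphate, had 1194 on 1 probe set and 8, at background, on the other. Fdft1, the squalene synthase, had 1458 and 1121 on one pair of probe sets and 24 and 20 on another. On the log2 scale the probe sets of Fdps had an SD of 5.11 and those of Fdft1 an SD of 3.39, and which probe sets report on the transcript was not tested. Sqle, the squalene epoxidase, had a single probe set at 551. Lss, the cyclase that forms lanosterol, had 235 and 205, with 31 on the remaining probe set. Nsdhl, which removes methyl groups from sterols, had 409, and Sc5d, which adds a late double bond, had 794, 281 and 28.

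Both SREBP genes and the 3 genes of their sterol-sensing machinery were above background, with 8 of 9 probe sets above the limit. Srebf1, whose products act mainly on fatty acid genes, had 627. Srebf2, whose product acts mainly on sterol genes, had 731 and 452. The escort gene Scap had 1057 on 1 probe set and 23 on the other. Insig1 had 364, and Insig2 had 1111, 641 and 380. Transcript levels do not report on the cleavage that activates SREBP proteins.

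Genes of sterol uptake, trafficking and efflux were divided. In this group 6 of 9 measured members (66.7%) passed, close to the 62.8% of all named genes. Vldlr, a receptor that takes up triglyceride-rich lipoproteins, had all 6 probe sets above the limit, at 3210, 1107, 945, 521, 210 and 93. Npc2, the soluble lysosomal sterol-binding protein, had 9723 and 8578, with 242 and 20 on the others, and its membrane partner Npc1 had 436. Lipa, the lysosomal acid lipase that frees cholesterol from its esters, had 489, 229 and 95. All 3 of these lysosomal genes had a probe set above the limit.

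Apoe, an apolipoprotein made by many tissues, had 5068 on its single probe set. Abca1, which loads cholesterol on lipid-poor apolipoproteins, had 1418 on 1 of 3 probe sets and 15 and 12 on the others. Abcg1, which exports cholesterol to mature high-density lipoprotein, had 28 and 16. Apoa1, the main protein of that lipoprotein, had 43, 42, 27 and 16, and Lcat, the plasma enzyme that esterifies its cholesterol, had 43. The call for Apoa1 and Lcat turned with the limit: both were above it when the 90th percentile of background was taken, an intensity of 25.5, and with olfactory and vomeronasal receptors alone as background, at 29.3. Abcg1 was above it in the first of these settings.

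Lipases and lipid droplet genes were above background in all 5 measured cases. Lpl, the lipase that releases fatty acids from circulating triglyceride, had 2086 and 324. Pnpla2, which starts triglyceride breakdown in droplets, had 331 and 15, and Lipe, the hormone-sensitive lipase that acts after it, had 119 and 14. Each of these intracellular lipases thus rested on 1 of 2 probe sets, and Lipe was below the limit with the mean of its probe sets. The droplet coat genes Plin2 and Plin3, which are broadly expressed, had 2433 and 995 on single probe sets. Of 4 measured perilipin genes 3 were above the limit, and Plin5, a coat protein of oxidative tissues, had 74 and 26, while Plin4 had 41.

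Fatty acid synthesis, desaturation and elongation genes were all above background, 11 of 11, with 22 of 30 probe sets above the limit. Acly, which splits citrate to cytosolic acetyl-CoA, had 2142, 2109 and 423 on 3 probe sets and 32, 8 and 8 on the other 3. Acaca, the cytosolic acetyl-CoA carboxylase that commits carbon to fatty acid synthesis, had 379 and 14. Acacb, the form placed at mitochondria that restrains fatty acid entry, had 54 and 15. Its higher probe set was near the limit and was below it when the 99th percentile of background was taken, an intensity of 84.75. Fasn, the fatty acid synthase, had 750.

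All 4 desaturase members had a probe set above the limit, and 1 of the 10 probe sets, of Scd2, was below it. Scd2, a stearoyl-CoA desaturase, had 4336, 170 and 16, and the related Scd1 had 1223 and 55. Fads1, the delta-5 desaturase of polyunsaturated fatty acids, had 3446 and 124, and Fads2, the delta-6 desaturase, had 2570, 602 and 446. Among the elongases, Elovl5, which acts on polyunsaturated chains, had 2767 and 2759, a spread of 0.003 (SD) on the log2 scale. Elovl1, which extends very long saturated chains, had 2228, 2102, 1218 and 38. Elovl6, which turns palmitate into stearate, had 239, 70 and 16. Of 7 measured elongase genes 4 were above the limit, and outside the members Elovl7 had 64 on the brightest of 6 probe sets, while Elovl2, Elovl3 and Elovl4 had at most 10, 19 and 23.

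Every measured gene of mitochondrial beta-oxidation was above background, 7 of 7, with 11 of 13 probe sets above the limit. Cpt1a, the broadly expressed outer-membrane carnitine palmitoyltransferase, had 1092, 617 and 143, and Cpt2, its inner-membrane partner, had 815 and 25. The acyl-CoA dehydrogenases had 1271 for Acadvl, which takes very long chains, 1562 and 14 for Acadl, which takes long chains, and 1432 for Acadm, which takes medium chains. Hadha and Hadhb, the subunits of the trifunctional protein that completes the cycle for long chains, had 713 for the alpha subunit and 1684, 1537 and 60 for the beta subunit. All 3 dehydrogenases and both subunits thus had a probe set above the limit.

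Fatty acid binding proteins were divided by paralog. Fabp5, the epidermal form, had 3353 and 1673, and Fabp3, the heart form, had 2052 on 1 probe set and 26 on the other. Fabp4, the adipocyte form, had 22, 19, 15 and 10, all at background. Cd36, a membrane receptor that takes up fatty acids and oxidised lipoproteins, had 16, 14 and 10. Over the 10 measured genes of the family, Pmp2 included, 3 were above the limit, the third being Fabp7, the brain form, at 64. Fabp4 and Cd36 were below the limit with every setting tried.

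**Figure D2:**
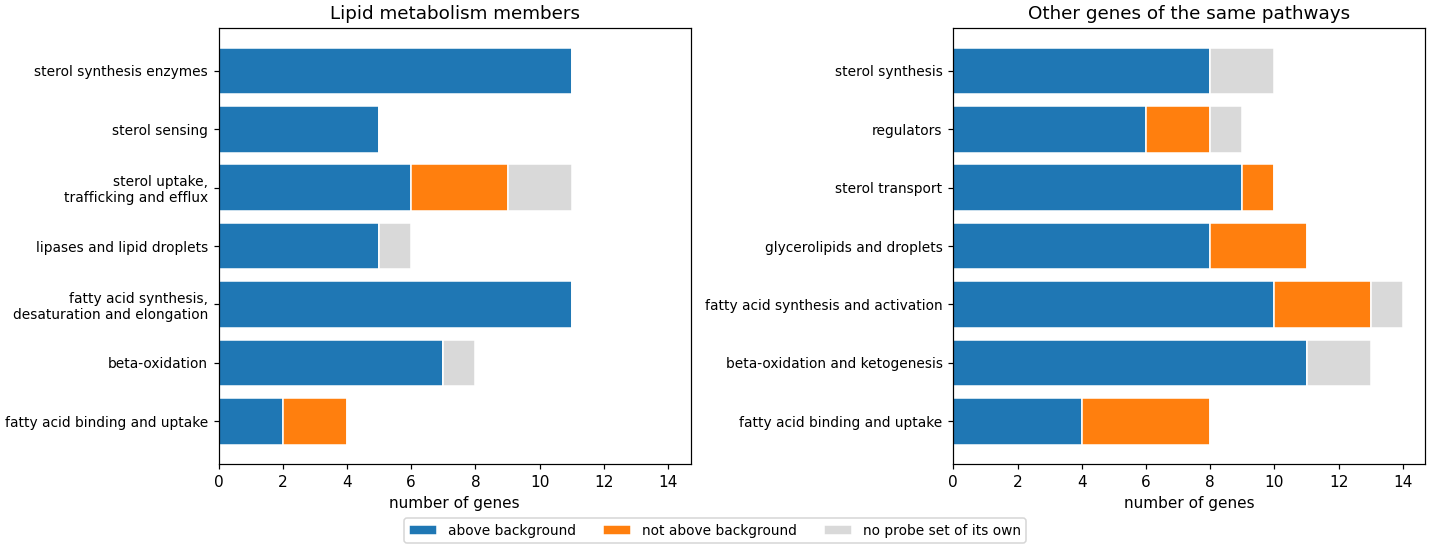
Bars count genes by role, for the lipid metabolism members on the left and other genes of the same pathways on the right, split into those above background, those not above it and those without a probe set of their own. Among members, genes not above background fall in 2 roles: sterol uptake, trafficking and efflux (3 genes) and fatty acid binding and uptake (2 genes).

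Other genes of these pathways were counted in a list of 75, of which 69 were measured and 56 (81.2%) were above background. Weighting all genes to the numbers of probe sets in that list gave 64.4%. All 8 measured further genes listed under sterol synthesis passed. Among them were Acat1, a mitochondrial thiolase, with 1611 on its brightest probe set, and Ggps1, which makes geranylgeranyl diphosphate, with 322. Acat2, the cytosolic thiolase of the same list, had no probe set of its own. All 11 further genes of beta-oxidation and ketogenesis passed as well, among them Slc25a20, the carnitine carrier, with 1279 and 640, and Acads, the short-chain dehydrogenase, with 540. Regulators were above the limit in 6 of 8 cases. Their probe sets were above it in 7 of 17 cases. Nr1h3, a liver X receptor that senses oxysterols, had 52, while Ppara, a regulator of fatty acid oxidation, had at most 30. Nr1h3 was thus near the limit, and it was below the limit when the 99th percentile of background was taken, an intensity of 84.75. Sterol transport genes passed in 9 of 10 cases, and Scarb1, a receptor for high-density lipoprotein, had 3 probe sets between 719 and 1022, while Lrp1, a large lipoprotein receptor, had 2800 and 42.

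Glycerolipid and droplet genes passed in 8 of 11 cases, with Mgll, the monoglyceride lipase, at 445 and Abhd5, the activator of Pnpla2, at 312 on their brightest probe sets. Fatty acid synthesis and activation genes passed in 10 of 13 cases. The acyl-CoA synthetases Acsl3 and Acsl4 had 139 and 2025 on their brightest. Of the further binding and uptake genes 4 of 8 passed, and Fabp1, Fabp2 and Fabp6, the liver, intestinal and ileal binding proteins, had at most 13, 9 and 20. Members and further genes of binding and uptake thus had as many below the limit as above it, 6 each. Over all named genes 62.8% were above it, and no difference from that share was tested. No gene listed under sterol synthesis or beta-oxidation in either list was below the limit.

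Several members lie beside paralogs in the genome, in clusters of neighbouring protein-coding genes in RefSeq. These clusters were chosen after the values of the members were seen. On chromosome 3, Fabp5 was above background, while Pmp2, Fabp9, Fabp4 and Fabp12, the next 4 genes, had at most 28, 16, 22 and 17. On chromosome 19, Scd2 and Scd1 were above the limit and Scd3 had 25 and 16. Also on that chromosome, Fads3, a neighbour of both desaturase members, had 3 probe sets between 74 and 1102, so all 3 genes of the Fads cluster were above the limit.

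The apolipoprotein clusters also differed within themselves. On chromosome 7, Apoc1, next to Apoe, had 970, Apoc4 had 60 and Apoc2 had 19. On chromosome 9, Apoa1 was below the limit, as were Apoc3, at 12, and Apoa4, at most 41, while Apoa5 had 50, near the limit. Near-identical paralogs can share probes, and the sources used here do not give the probe sequences, so cross-hybridisation between paralogs was not tested.

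**Figure D3:**
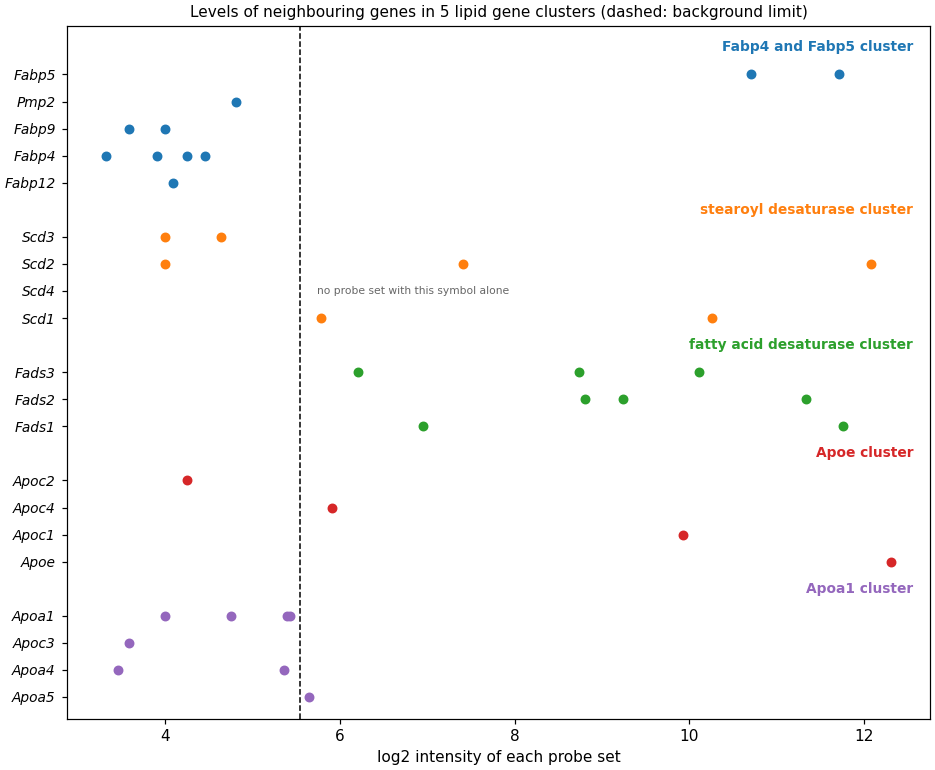
Each point is 1 probe set, on the log2 intensity scale, for neighbouring genes in 5 clusters that hold lipid metabolism members, listed in their order along the chromosome. The dashed line is the background limit of 5.54. Fabp5 stands above it with both points, and the other 4 genes of its cluster stand below it with every point.

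The labelled cell type was checked with marker genes, as were other cells that use lipid genes. Over all named genes 62.8% passed the limit, and this share stands beside the count of every marker list. The sums of brightest intensities given for each list describe that list only and are not compared, since lists differ in length and probe sets in affinity. All 10 markers of surface epithelium and mesothelium were above background, with brightest intensities from 2047 to 20836 and a sum of 66870. Adipocyte markers, which matter for Fabp4, Lipe and Lpl, passed in 1 of 5 measured cases, with a sum of 116. Adipoq, the adipocyte hormone adiponectin, had 11, Lep, the hormone leptin, had 14, and Retn, at 58, was the marker that passed. Endothelial markers, which matter for Cd36, Fabp4 and Lpl, passed in 1 of 8 cases with a sum of 335. Gpihbp1, which holds lipoprotein lipase on capillaries, had 30, and Egfl7, at 212, was the marker that passed. Hepatocyte markers passed in 1 of 5 measured cases and oocyte markers in 0 of 6, with sums of 182 and 146.

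Macrophages express Apoe, Abca1, Lpl, Lipa and Npc2, and their markers were present. Of 8 macrophage markers 7 were above background, with a sum of 3850, of which Lyz2, a lysozyme, gave 2142. Adgre1, a macrophage surface receptor, passed at 47, within rounding of the limit, and the count was 6 with the 99th percentile of background or with genes of other organs as background. Mrc1, a mannose receptor, had 16. Steroid-producing cells also use sterol genes, and 3 of 5 of their measured markers passed, no larger a share than the 62.8% of all named genes, with a sum of 1837 and Star, the mitochondrial cholesterol carrier, at 1229. The count was 2 with the mean or the lowest probe set. Fibroblast markers passed in 7 of 7 cases and smooth muscle markers in 6 of 6, with sums of 77382 and 56520. The part of these cells in the lipid transcripts was not tested.

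**Figure D4:**
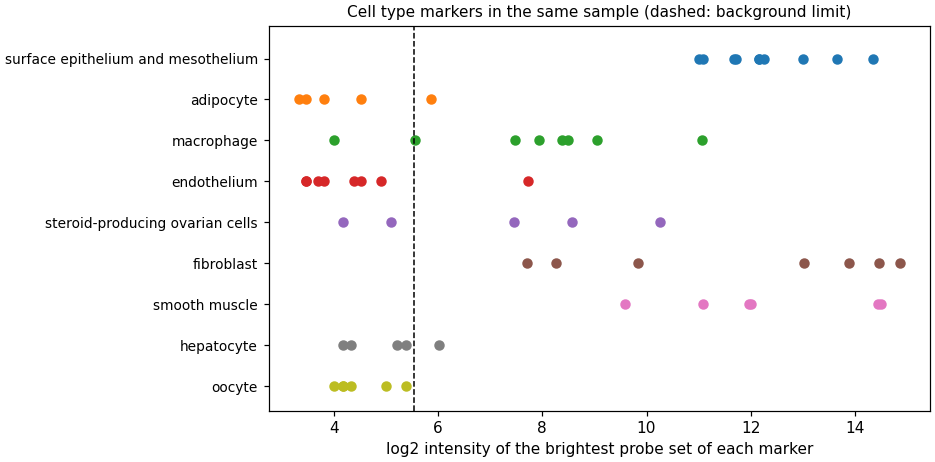
Each point is the brightest probe set of 1 marker gene, on the log2 intensity scale, by cell type. All surface epithelial and mesothelial markers lie right of the dashed background limit of 5.54, as do all fibroblast and smooth muscle markers and 7 of 8 macrophage markers, while 1 adipocyte and 1 endothelial marker do.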

How the data were processed

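Per the labels' protocols, total RNA was made into biotin-labelled cRNA for an Affymetrix array. The deposited table holds 1 intensity for each of 45101 probe sets, from 6 to 32341. The tools affy and RMA stand, without versions, in the submitters' processing notes. RMA corrects background, normalizes between arrays and summarises probes, and it shrinks differences between low intensities. It usually returns log2 values, whereas the deposited intensities are whole linear numbers, and neither the step between them nor the set of arrays normalized jointly is stated in these notes. At the background limit, rounding is worth at most 0.0154 (log2). Intensities were put on the log2 scale, and control probe sets were left out. Probe sets were named from the platform annotation, and for all 122 member probe sets the RefSeq symbol of the gene number (GRCm38.p6) was the same. The level of a gene was its brightest probe set. Every member is named; of the other pathway genes the first 2 measured in each role, in written order, and the Fabp and Elovl paralogs are named. Further genes, motifs and clusters were named after values were seen. Members and lists were chosen with earlier results of these data known. An array has no read depth, and 1 array gives no precision. Alternatives were other limits and backgrounds, the gene's mean or lowest probe set, leaving out probe sets with marked identifiers (several transcripts, or probes shared between genes), and a limit exceeded 2-fold, the last added after the values were seen. The software was pandas 2.3.3, NumPy 2.4.6 and matplotlib 3.10.9 under Python 3.11.15.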

Additional observations from a re-analysis of the deposited data

How the results depend on the processing

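The count of members above background was 47 of 52, and 46 to 50 when the limit or the background was changed, with Acacb leaving or Abcg1, Apoa1 and Lcat joining. It was 46 with the limit exceeded 2-fold, an alternative chosen after seeing the data, and 45 with the mean of probe sets, where Acacb and Lipe left. Without marked probe sets it was 42 of 47, where Apoe, Elovl1, Pmvk and Srebf1 had no probe set left and Pnpla2 fell below the limit. Apoa1, which was not above the main limit, had no probe set left either, since all 4 of its probe sets were marked. With the lowest probe set it was 28, against 39.7% of all genes, since a single dim probe set then decides. By role, the lowest probe set gave 6 of 11 for sterol synthesis enzymes, 3 of 5 for lipases and droplets, 5 of 11 for fatty acid synthesis, desaturation and elongation, and 1 of 4 for binding and uptake. The median level of the members was 9.88 without marked probe sets, 8.26 with the mean and 6.22 with the lowest probe set, against 6.48, 6.09 and 4.81 over all genes. The count of other pathway genes was 56 of 69, and 48 to 58 when the limit or the background was changed, against 55.3% to 73.2% of all genes. It was 52 with the mean of probe sets, against 57.6% of all genes. Without marked probe sets it was 46 of 64, against 59.2%, and with the lowest probe set 41 of 69, against 39.7%. Markers of other cells moved by few genes. Adipocyte markers numbered 0 with the limit at the 99th percentile and with genes of other organs as background. Endothelial markers numbered 2 with the limit at the 90th percentile and with olfactory and vomeronasal receptors as background, and 0 without marked probe sets. Hepatocyte markers numbered 3 and oocyte markers 2 under the same lower limits, and hepatocyte markers 0 under the other 5 alternatives. Smooth muscle markers numbered 3 with the lowest probe set. Of the recomputed counts 119 stayed within 1.5 times the reported count and 20 did not. Many reported counts were at or near the number of genes measured and could not rise that far, so this tally does not measure stability. The lowest intensities are limited by background, and no setting replaces a replicate array.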
